A study of Homo sapiens with 6 samples.

Results

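In MDA-MB-231 cells, 497 promoters were among the strongest open chromatin sites of all 6 ATAC-seq libraries. They were chosen by their measured values: each locus had a peak summit in every library, lay within 1 kb of the start site of a protein-coding gene on chromosomes 1 to 22, and had a best score in the top decile of each library's own list. They made up 8.24% of the 6035 promoter loci with a summit in all 6 libraries and 0.881% of the 56419 loci found in any library. Of the 1127 loci of any kind in the top decile of all 6 libraries, 44.1% were these promoters. A total of 609 protein-coding genes had a start site within 1 kb of a locus in the set. Of the 497 promoters, 453 are named here by their nearest representative start site. The others had none within 1 kb and are named by the nearest start of any transcript. Because the scores chose the promoters, their high ranks are a description and carry no test.

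ATAC-seq, in which a transposase inserts sequencing adapters into open DNA, was performed in triplicate on parental cells (3 libraries) and on the knockout line SAP30-KO1 (3 libraries), to compare accessibility with and without SAP30. MDA-MB-231 is an established human triple-negative breast cancer line. Parental cells carried the unedited gene, and in SAP30-KO1 the gene was disrupted by CRISPR/Cas9 with a guide RNA. The knockout line is a pool of selected single-cell knockouts, so a difference between the groups is one between this line and its parent. The knockout cells had been selected with puromycin, and the labels name no treatment for either group. Promoter summits were present in all 6 libraries for CAV1, CD44 and VIM and in 2 to 5 libraries for AXL, LAMC1 and ZEB1, markers of mesenchymal breast cancer lines. Of 8 genes of luminal cells, none had one in all 6 libraries, while 7 had one in some, including GATA3 in 5 libraries and EPCAM in 4. None of these 14 genes was in the set. The lists held 29762 to 40650 summits per library. A summit's score is a significance, −log10 of its q value, and the read depth behind it is unknown. A score of 12.5 to 15.1, depending on the library, marked the top decile, and the promoters of the set had median scores of 18.7 to 24.9.

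An active promoter is kept free of a nucleosome just upstream of its start site, where transcription factors bind and the transposase can cut. Many promoters of broadly used genes lie in CpG islands and carry GC boxes, bound by SP1, and CCAAT boxes, bound by NF-Y. SAP30 is a subunit of the SIN3 complex, which carries histone deacetylases to such promoters and is best known for repressing genes there.

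The sequences of 7 of the promoters are shown first, as examples of the CCAAT box counted among the motif results. They were picked for it after their sequences were seen, so what they share is no finding. Of these, 3 are among the 10 highest-ranked promoters and 4 are among those with lower scores in SAP30-KO1. Each is the stretch of the locus outside annotated exons that was nearest to the median summit, on the strand of the gene, with letters from GRCh37 (hg19). Capitals mark matches on either strand to any of 11 short motifs, among them the CCAAT box, which reads ATTGG on the other strand, and the GC box GGGCGG; the others are spelled out with their shares among the motif results. MSANTD4 (chr11:105893131-105893370, minus strand) ends short of the median summit, which lay in an exon, and the other 6 stretches contain it. These are G3BP1 (chr5:151151158-151151397, plus strand), ARRDC4 (chr15:98503612-98503851, plus strand), EHBP1 (chr2:62932512-62932751, plus strand), TMEM218 (chr11:124981660-124981899, minus strand), STT3A (chr11:125462474-125462713, plus strand) and FAR1 (chr11:13689938-13690177, plus strand).
G3BP1: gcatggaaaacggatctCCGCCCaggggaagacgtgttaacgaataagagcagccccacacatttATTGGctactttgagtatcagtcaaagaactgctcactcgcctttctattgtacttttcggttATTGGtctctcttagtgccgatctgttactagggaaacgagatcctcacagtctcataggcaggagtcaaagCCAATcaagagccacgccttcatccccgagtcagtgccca
ARRDC4: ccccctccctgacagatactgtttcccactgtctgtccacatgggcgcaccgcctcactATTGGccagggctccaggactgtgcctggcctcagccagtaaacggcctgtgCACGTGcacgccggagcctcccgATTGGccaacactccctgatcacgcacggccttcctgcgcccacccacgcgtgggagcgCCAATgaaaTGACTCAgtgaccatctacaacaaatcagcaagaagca
EHBP1: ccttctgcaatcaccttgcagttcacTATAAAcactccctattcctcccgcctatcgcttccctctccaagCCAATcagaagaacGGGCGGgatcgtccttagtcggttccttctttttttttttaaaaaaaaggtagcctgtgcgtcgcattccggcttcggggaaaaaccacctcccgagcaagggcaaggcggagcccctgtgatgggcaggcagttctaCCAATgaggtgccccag
TMEM218: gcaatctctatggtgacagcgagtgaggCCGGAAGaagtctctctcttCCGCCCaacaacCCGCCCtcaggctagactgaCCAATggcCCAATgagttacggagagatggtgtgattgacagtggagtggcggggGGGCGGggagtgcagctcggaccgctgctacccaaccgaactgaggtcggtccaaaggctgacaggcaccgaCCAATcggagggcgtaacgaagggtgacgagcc
STT3A: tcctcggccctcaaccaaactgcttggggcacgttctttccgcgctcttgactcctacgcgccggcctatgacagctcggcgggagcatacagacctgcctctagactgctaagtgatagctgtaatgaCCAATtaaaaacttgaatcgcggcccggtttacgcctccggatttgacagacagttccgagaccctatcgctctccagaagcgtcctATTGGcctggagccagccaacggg
FAR1: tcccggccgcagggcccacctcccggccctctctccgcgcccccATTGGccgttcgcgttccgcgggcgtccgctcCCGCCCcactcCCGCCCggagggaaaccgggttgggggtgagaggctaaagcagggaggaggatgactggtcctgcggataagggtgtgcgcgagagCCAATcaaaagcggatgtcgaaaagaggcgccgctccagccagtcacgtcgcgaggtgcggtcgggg
MSANTD4: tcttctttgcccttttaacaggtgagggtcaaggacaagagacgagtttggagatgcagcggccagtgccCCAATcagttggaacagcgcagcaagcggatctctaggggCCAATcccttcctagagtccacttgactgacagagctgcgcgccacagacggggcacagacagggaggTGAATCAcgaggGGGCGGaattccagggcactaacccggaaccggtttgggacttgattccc
Of the 13 stretches read from the highest-ranked and the lower promoters, KIFAP3, TCTN3, FHIP1B and PDGFD held no CCAAT box. SYTL2 held 1 and KYAT3 held 2. The stretches of these genes are not shown. G3BP1, ARRDC4 and TMEM218 held 3 each. ARRDC4 and STT3A held no GC box, whereas TMEM218 held 3.

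The highest-ranked promoters belonged to genes of varied cell functions rather than to one pathway. Values are given in the order parental replicates 1 to 3 and then SAP30-KO1 replicates 1 to 3, and ranks are percentiles from 0 to 100 within a library's own list. KYAT3, a kynurenine aminotransferase that shares its promoter with RBMXL1, had scores of 41.3, 50.5, 45.8, 36.5, 58.9 and 48.2 and a mean percentile of 99.97. KIFAP3, the accessory subunit of the kinesin-2 motor, had scores of 49.9, 49.9, 38.0, 39.7, 51.3 and 43.3 and the same mean percentile of 99.97. One or the other of these promoters was the highest of the set in every library. G3BP1, the scaffold of stress granules, had scores of 43.4, 49.6, 42.7, 39.1, 51.8 and 39.9. EDEM1, which directs misfolded glycoproteins out of the endoplasmic reticulum for degradation, had scores of 42.8, 35.2, 37.3, 37.5, 44.3 and 37.6. The scores overlapped between the groups in both genes. Scores were also taken relative to each library's median over the loci with a summit in all 6 libraries. On that scale G3BP1 was lower in all 3 SAP30-KO1 libraries than in all 3 parental ones (limma adjusted p = 0.683). The remaining promoters of the first 10 were ARRDC4, an arrestin-domain protein, ENY2, a subunit of the SAGA and TREX-2 complexes, EBAG9, a Golgi protein, TCTN3, a protein of the transition zone of cilia, EHBP1, an adaptor of endocytic recycling, and FHIP1B, a subunit of a dynein adaptor complex. Their mean percentiles ran from 99.84 to 99.91.

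Within the set, ranks spread over a narrow range by construction, as the rule held each at 90 or above in every library. The mean percentile of a promoter ran from 92.0 to 99.97, with a median of 97.4. The median promoter moved by 4.14 percentile points between its lowest and highest library. A percentile of at least 99 in every library was reached by 33 promoters, and one of at least 95 by 245. Just inside the limit, with a lowest percentile of 90.04 to 90.13, were TDRKH, WDR41, ACOT13, GCSH and GLIPR1L2. Just outside, with a lowest percentile of 89.93 to 89.998, were RPE, GGCT, UBE2N, CREB3L2 and SEMA4F. On both sides of the limit, other libraries ranked such promoters higher, as TDRKH reached 97.7 in parental replicate 2 and UBE2N reached 98.6 in parental replicate 3. A further 286 promoter loci were in the top decile of exactly 5 libraries, so the edge of the set is set by single libraries.

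To see which genes these are, 20 gene lists were counted. Of all 6597 protein-coding genes with a promoter locus in all 6 libraries, 609 (9.23%) were near a promoter of the set, which is the background for the lists. Genes of large housekeeping machines were few. They were 1 of 31 cytosolic ribosomal protein genes (RPL15), 1 of 25 proteasome genes (PSMD5), 1 of 43 genes of the spliceosome and hnRNP proteins (SF3B6), 1 of 43 nuclear genes of the respiratory chain (CYCS, cytochrome c) and 1 of 37 mitochondrial ribosome genes (MRPL50). None of 21 replication-dependent histone genes, 18 cytoskeleton genes, 10 YAP and TEAD targets, 10 inflammatory genes, 8 ubiquitin genes or 7 genes of MLL complexes was in the set. Closer to the background were 3 of 37 genes with the symbol of a translation factor (EIF3E, EEF1E1 and its readthrough gene) and 2 of 29 tRNA synthetases (LARS1 and EPRS1). The first of these lists was drawn by symbol alone and need not hold only translation factors. Also closer were 15 of 229 ZNF genes (led by ZNF189, ZNF25 and ZNF670), 1 of 17 DNA replication genes (RPA3) and 2 of 16 immediate early genes (BTG1 and ATF3). The share was above the background in 6 of 33 cyclin, CDK and E2F genes (18.2%, led by CCNG1, CCNK and CCNH). It was also above it in 3 of 13 heat shock genes (HSF2, HSPD1 and HSP90B1) and 3 of 13 genes of the SIN3 complex and its recruiting factors. These are counts of few genes, and several genes share a promoter with another gene.

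Of the genes on the SIN3 list, ARID4A, a chromatin-binding subunit, had percentiles of 99.6, 99.5, 99.2, 96.9, 98.9 and 99.7. BRMS1L, a subunit related to BRMS1, had 94.9, 99.5, 95.4, 97.4, 96.4 and 98.4. MAX, the DNA-binding partner of the MXD repressors that recruit SIN3, had 98.0, 99.4, 95.2, 98.8, 96.0 and 93.8. In all 3 genes the groups overlapped. SAP30 itself had a promoter summit in every library at a mean percentile of 73.6 and was not in the set. Others of the list outside it were SIN3A, SIN3B and HDAC2, with summits in every library at mean percentiles of 56.7, 64.2 and 56.8. MXD1, SAP30L and ING1 came closer to the limit, at 97.1, 92.2 and 91.7. HDAC1 and SAP18 had a promoter summit in 3 libraries and SUDS3 in 1. These genes outside the set were named after their values were seen. Among the genes followed by the study, 1 of the 6 with a promoter locus in all libraries, PDGFD, was in the set.

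Among the sequence features counted, the CCAAT box differed by the most percentage points from the other promoter loci. In the 300 bp around the median summit, 279 of the 497 promoters (56.1%) held CCAAT on one strand or the other, against 1990 of the other 5538 promoter loci (35.9%) and 37.6% of all promoter loci with a summit in all 6 libraries. At least 2 boxes were present in 140 promoters of the set (28.2%) and in 14.6% of the others. The share rose step by step with the number of libraries in which a promoter locus was in the top decile, from 33.3% of 3362 loci in none to 48.3% of 286 loci in 5. Within sequences of 50 to 60% GC it was 64.4% in the set and 47.7% in the others, within 60 to 70% GC it was 60.6% in the set and 38.1% in the others, and at 70% GC and above it was 48 of 120 promoters and 26.3%. The box was more common in the set in each of these 3 classes of base composition.

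**Figure D1:**
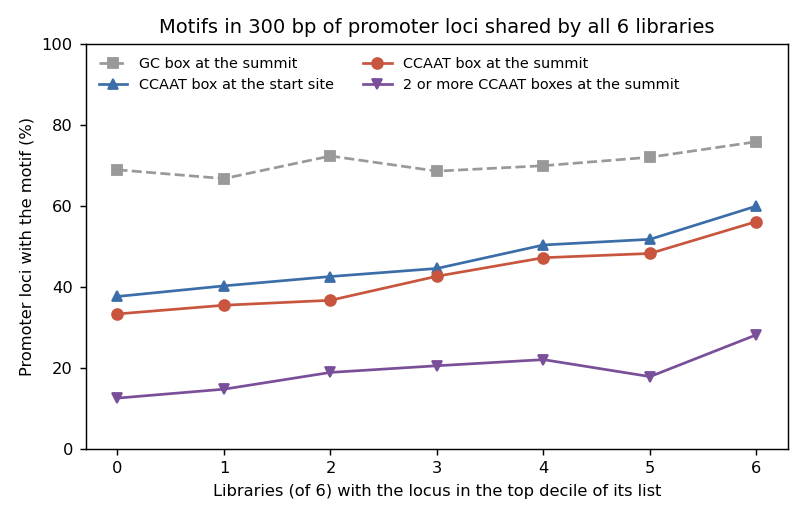
Percentage of promoter loci with a motif in 300 bp (vertical axis) by the number of libraries, from 0 to 6, in which the locus was in the top decile (horizontal axis). The share with a CCAAT box at the summit rose from 33.3% to 56.1%, whereas the GC box stayed between 66.7% and 75.9%.

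A window placed by the start site rather than by the summit gave a like picture. The start was chosen by its nearness to the middle of the locus, so the window was not wholly independent of the summits. In a window fixed by the start site, from 250 bp before to 50 bp after it, 298 promoters of the set (59.96%) and 40.2% of the others held a CCAAT box. It lay on the gene's own strand in 38.0% of the set against 23.7% of the others, and on the other strand in 34.8% against 23.7%. Most boxes lay from 125 to 25 bp before the start site in both sets. In the bin from 75 to 50 bp before the start, there were 17.5 boxes per 100 promoters of the set and 12.8 per 100 of the others. From 125 to 100 bp before the start the values were 16.1 and 7.24.

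**Figure D2:**
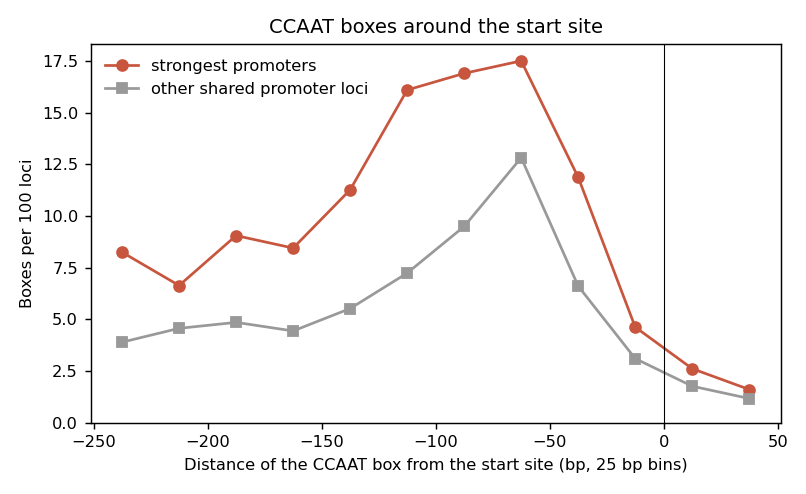
CCAAT boxes per 100 promoter loci (vertical axis) in bins of 25 bp around the start site (horizontal axis, bp) for the 497 promoters and the 5538 others. Both curves peak from 75 to 50 bp before the start, at 17.5 and 12.8 boxes per 100 loci, and the curve of the 497 promoters lies above the other in each bin.

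The other motifs differed by fewer percentage points, and the rarest of them rest on few promoters. A GC box (GGGCGG) was found in 75.9% of the set and 69.1% of the others, and both boxes together in 42.5% and 25.4%. The ETS motif CCGGAAG was present in 15.3% and 16.96%, the NRF1 motif GCGCNTGCG in 10.7% and 11.4%, and the CRE TGACGTCA in 3.02% and 2.49%. The AP-1 motif TGANTCA was held by 6.24% and 8.45%, the E-box CACGTG by 6.24% and 7.85%, the YY1 motif AAGATGGC by 2.62% and 3.79%, and TATAAA by 1.41% and 3.16%. The motif TCTCGCGAG occurred in 3 promoters of the set (0.604%) and 1.16% of the others, and ACTACAATT in 6 (1.21%) and 0.433%. In relative terms ACTACAATT, TATAAA and TCTCGCGAG thus differed more than CCAAT. Over all promoter loci of the same kind and length, the shares were 69.6% for GGGCGG, 16.8% for CCGGAAG, 11.4% for GCGCNTGCG, 2.54% for TGACGTCA, 8.27% for TGANTCA, 7.72% for CACGTG, 3.70% for AAGATGGC, 3.02% for TATAAA, 1.11% for TCTCGCGAG and 0.497% for ACTACAATT. No searched motif lies within another, and a match of letters is not a bound site. Among the promoters described above, the 300 bp of ARID4A held 7 CCAAT boxes, while KIFAP3 and PDGFD held none.

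The set was neither richer nor poorer in GC by much. Its median GC content was 65.0% (quartiles 60.7% and 69.7%), against 66.7% (60.3% and 71.7%) in the others. Its CpG content relative to expectation was 0.818 at the median, against 0.822. The middle of the range was favoured: 10.3% of shared promoter loci at 60 to 70% GC were in the set, 9.85% at 50 to 60%, 2.80% at 40 to 50%, 5.81% at 70% or more, and none of the 34 loci under 40%. Opposite-strand start sites within 1 kb, the mark of a bidirectional promoter, were found at 62 promoters of the set (12.5%) and at 8.31% of the others.

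The promoters tended to stand apart from other genes. Representative start sites of protein-coding genes within 100 kb numbered 2 at the median (quartiles 1 and 3), against 3 (2 and 5) in the others. Of promoter loci with at most 1 such start, 10.8% were in the set, and of those with 9 or more, 2.04%. No other open locus of any library lay within 10 kb of 355 promoters (71.4%), against 63.6% of the others. Median GC content fell in the same order, from 67.7% where starts were fewest to 64.0% where they were densest. The part of GC content in this was not tested. The set was also uneven across chromosomes. It held 13.9% of the shared promoter loci of chromosome 5, with 52 promoters on its long arm, and 11.04% of those of chromosome 1. Chromosome 19, dense in genes, gave 2 of 249 shared promoter loci, KMT5C, a histone H4 lysine 20 methyltransferase, and ZNF584. These were named after their values were seen. Chromosome 22 gave none of 30, and the short arm of chromosome 16 none of 57. Copy number of the chromosomes was not analysed here, and its part in the uneven spread was not tested.

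**Figure D3:**
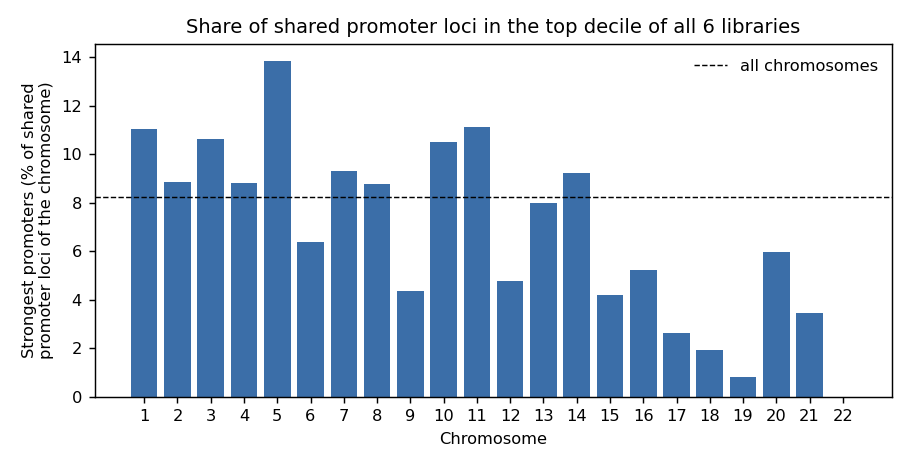
Percentage of the promoter loci shared by all 6 libraries that were in the set (vertical axis), for chromosomes 1 to 22 (horizontal axis), with the value over all chromosomes (8.24%) as a dashed line. Chromosome 5 is highest at 13.9%, and chromosomes 17, 18, 19 and 22 lie under 3%.

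The summits of the set were placed more tightly than those of other promoters. The best summit moved over 207 bp at the median between the 6 libraries (quartiles 105 and 297), against 316 bp (223 and 382) in the others. A range of at most 50 bp was seen for 31 promoters (6.24%) and for 1.34% of the others. Stronger peaks can be placed more exactly, and the part of peak strength in this was not tested. The tightest were DNAH6, encoding a dynein of cilia, with a range of 10 bp, SLC6A6, the taurine transporter, with 13 bp, and BTG1, an antiproliferative factor, with 14 bp, named after their values were seen. The median summit lay 106 bp before the start site in the set and 60 bp before it in the others, and 70.6% against 61.0% lay upstream. A single summit in every library was found at 467 of the 497 promoters.

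To ask which promoters shifted between parental and SAP30-KO1 cells, limma was fitted to the log2 scores of all 16314 loci with a summit in every library, each library centred on its median. Scores were lower in SAP30-KO1 at 7 promoters of the set (1.41%), against 0.49% of all loci tested (limma, Benjamini-Hochberg adjusted p under 0.05). They were higher at none, against 0.595% of all loci. Of the 5538 other promoter loci, 0.361% were called lower and 0.163% higher. All 7 promoters of the set called lower were on chromosome 11, and 6 of them on its long arm, 11q. At each of the 7, all 3 SAP30-KO1 libraries were below all 3 parental libraries. A promoter had to stay in the top decile of every library to be in the set, so a larger loss at a strong parental promoter would have removed it. A promoter that reached the top decile only in SAP30-KO1 was likewise left out, so the rule limits gains as well as losses. Without a variance trend on the mean score, limma called none of the 497 in either direction, with adjusted p of 0.173 to 0.362 for the 7.

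SESN3, a sestrin that restrains growth signalling under stress, had scores of 37.1, 33.3 and 30.6 in parental cells and 20.3, 17.3 and 17.3 in the knockout. On the log2 scale, relative to the median shared locus of each library, parental libraries were at 1.99 ± 0.08 and SAP30-KO1 libraries at 0.99 ± 0.33 (SD, n = 3). The difference was -0.997 (SE 0.19, limma adjusted p = 0.00206). The groups did not overlap on either scale. TMEM218, a membrane protein of cilia, had scores of 41.7, 31.1 and 40.8 and then 16.1, 23.1 and 26.2, with a difference of -0.93 (SE 0.18; limma adjusted p = 0.00233). These are the promoters of the 7 that were called whichever single library was left out. STT3A, the catalytic subunit of the oligosaccharyltransferase, had scores of 34.1, 24.8 and 32.0 in parental cells and 14.1, 23.1 and 17.8 in SAP30-KO1 cells, with a difference of -0.86 (SE 0.20; limma adjusted p = 0.0171). SYTL2, an effector of RAB27 in vesicle secretion, had 34.6, 30.2 and 33.1 and then 21.5, 21.2 and 19.5, a difference of -0.77 (SE 0.19; limma adjusted p = 0.0230). Both fell in every SAP30-KO1 library.

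PDGFD, a ligand of the PDGF receptor beta, had scores of 33.9, 33.4 and 35.3 in parental cells and 18.6, 21.9 and 25.7 in SAP30-KO1 cells. Its difference was -0.76 (SE 0.18; limma adjusted p = 0.0220). MSANTD4, a protein with a Myb/SANT-like domain, had scores of 40.1, 40.9 and 38.5 and then 24.6, 31.9 and 25.4, a difference of -0.67 (SE 0.16; limma adjusted p = 0.0238). For each of these genes the lowest parental score lay above the highest of SAP30-KO1. FAR1, a fatty acyl-CoA reductase of ether lipid synthesis and the promoter called on the short arm, had scores of 40.2, 38.6 and 34.1 in parental and 20.4, 26.4 and 23.2 in SAP30-KO1 cells. The difference was -0.81 (SE 0.17; limma adjusted p = 0.00585), and its 3 SAP30-KO1 libraries lay close together. The calls rested on few libraries: leaving out 1 library left 2 to 5 of the 7, with 2 (SESN3 and TMEM218) without parental replicate 1, 3 without parental replicate 2 or parental replicate 3, and 4 without SAP30-KO1 replicate 2.

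**Figure D4:**
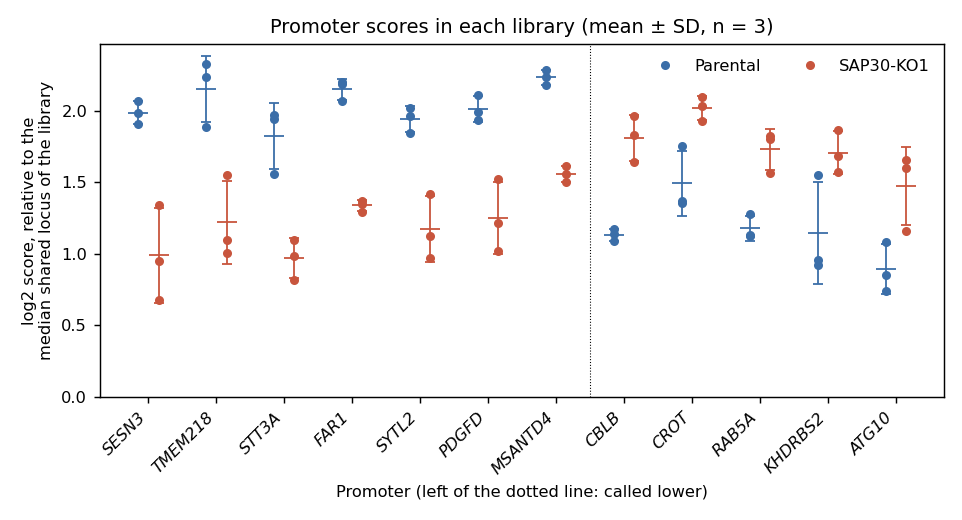
log2 score relative to the median shared locus of the library (vertical axis) for the 7 promoters called lower in SAP30-KO1, left of the dotted line, and the 5 with the smallest p among those with higher scores, right of it. Points are libraries and bars are mean ± SD (n = 3). At SESN3 the groups lie at 1.99 ± 0.08 and 0.99 ± 0.33 without overlap.

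The differences on 11q were shared by the promoters and the other loci of the arm. How they varied with position along the arm was not examined. All 22 promoters of the set on 11q had lower scores in SAP30-KO1, by a median of -0.57 on the log2 scale, and ran from -0.997 to -0.06. The 454 loci of any kind shared on 11q had the same median difference of -0.57. Of these loci 49 (10.8%) were called lower, against 6 of the 22 promoters (27.3%), and the median SE was 0.32 for these loci and 0.20 for the 22 promoters. On the other 20 arms with at least 8 of the promoters, the median difference of the promoters lay between -0.15 and 0.20, and that of all shared loci between -0.14 and 0.19. When each library was centred within each arm, none of the 6 promoters on 11q was called (adjusted p of 0.520 to 0.943), with differences of -0.39 for SESN3, -0.32 for TMEM218, -0.25 for STT3A, -0.16 for SYTL2, -0.15 for PDGFD and -0.06 for MSANTD4. The lower scores of these promoters therefore cannot be told apart from a difference shared by loci of the arm, whose cause was not tested. FAR1 stayed at -0.77 (limma adjusted p = 0.0291), and the 14 promoters of the set on 11p had a median of -0.14.

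**Figure D5:**
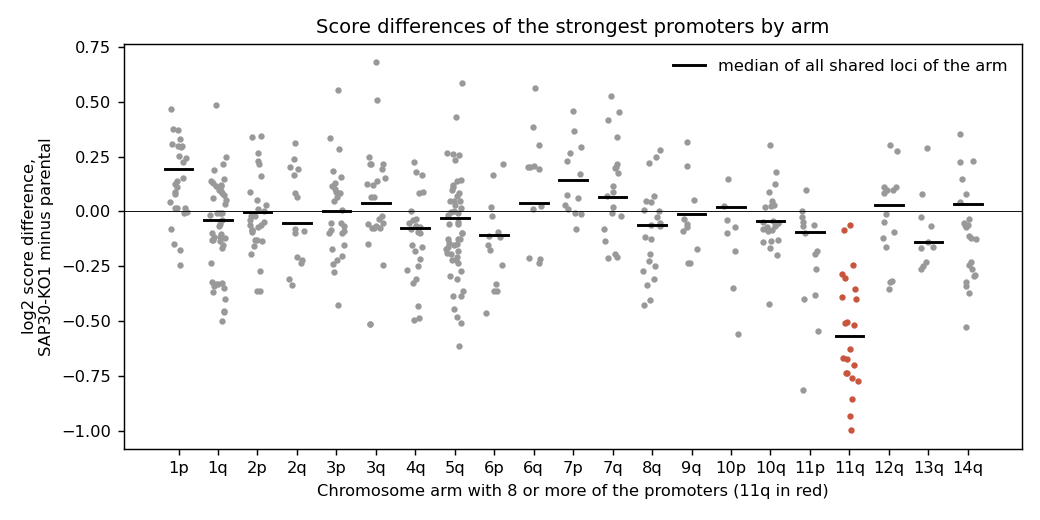
Difference of log2 score, SAP30-KO1 minus parental (vertical axis), for each promoter of the set on the 21 chromosome arms with 8 or more of them (horizontal axis). Points are promoters, with 11q in red, and black bars are medians of all shared loci of the arm: on 11q all 22 points lie below 0, around the bar at -0.57.

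No promoter of the set passed the test in the other direction, and the 5 with the smallest p are given as values. CBLB, a ubiquitin ligase that restrains receptor signalling, had scores of 18.8, 18.5 and 18.4 in parental and 24.99, 38.4 and 34.9 in SAP30-KO1 cells, a difference of 0.68 (SE 0.19; limma adjusted p = 0.0592). CROT, a carnitine acyltransferase of peroxisomes, had 29.8, 21.5 and 21.1 and then 30.5, 46.0 and 36.7, a difference of 0.53 (SE 0.18; limma adjusted p = 0.144). Neither overlapped between groups, and both were called with quantile normalization (adjusted p = 0.0248 and 0.0436). RAB5A, the GTPase of early endosomes, had scores of 21.4, 18.3 and 17.9 and then 28.3, 32.0 and 31.2, a difference of 0.55 (limma adjusted p = 0.170). KHDRBS2, an RNA-binding regulator of splicing, differed by 0.56 (limma adjusted p = 0.179). ATG10, which conjugates ATG12 in autophagy, differed by 0.58 (limma adjusted p = 0.203). The groups were apart in all 5 of these genes, which were picked for small p.

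Over the whole set the shift was small. The median difference was -0.06 on the log2 scale, against -0.01 over all 16314 loci, and 307 promoters (61.8%) were lower in SAP30-KO1, against 50.9% of all loci. The median promoter of the set stood above the median shared locus on the log2 scale in every library. It did so by 1.28, 1.29 and 1.28 in parental cells and by 1.22, 1.21 and 1.24 in SAP30-KO1 cells, so the groups did not overlap. Off chromosome 11 the median difference was -0.05 over 461 promoters, of which 59.2% were lower. It was -0.01 with quantile normalization and 0.06 without scaling, when all loci moved by 0.11. The groups did not overlap with SAP30-KO1 lower at 48 promoters (9.66%), against 8.34% of all loci, and with SAP30-KO1 higher at 24 (4.83%), against 8.21%. In the other promoter loci these shares were 7.22% and 6.93%. Of the 48, 14 were on 11q. An unadjusted p under 0.05 was found for 53 promoters (10.7%) and for 11.6% of all loci. The middle 90% of the differences in the set ran from -0.48 to 0.31, against -0.67 to 0.68 over all loci. The rule bounds the scores of the set in every library and so limits differences in both directions. The narrower range and the shares of the set given here are thus partly fixed by the rule.

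The place of the summit was also compared, as it was not used to rank the promoters. No promoter of the set was called for a shift of its best summit (limma), and 0.0% of all 16314 loci were. The lowest adjusted p was 0.531 in the set and 0.255 over all loci. An unadjusted p under 0.05 was found for 11 promoters (2.21%) and for 5.02% of all loci. The absolute difference between group means was 40.7 bp at the median, against 66.7 bp over all loci, so a shift of a few bases was not detectable with 3 libraries per group.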

How the data were processed

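ATAC-seq of 3 parental and 3 SAP30-KO1 libraries of MDA-MB-231 cells was analysed from the summit lists that the authors deposited, 1 per library. Per the submitters' processing notes and the study's methods, single-end reads were checked with FastQC 0.11.2, trimmed with Trim Galore 0.4.5, aligned to hg19 with Bowtie2 2.3.3.1, cleared of duplicates with Picard, and peaks were called with MACS2 2.1.0 at a q value of 0.05. Handling of the transposase offset, blacklisted regions and mitochondrial reads is not given in the sources used here. A missing offset correction would displace summits by only a few bases. The deposited score is the −log10 of the q value. It rises with depth as well as with openness, and the lists hold no counts. Precision rests on the spread between libraries, which limma drew toward that of loci with a like mean score. An SE can thus differ from a promoter's own spread, as at MSANTD4 (SD 0.05 in parental and 0.06 in SAP30-KO1 libraries, SE 0.16). Nothing states that replicates came from separate cultures. The p-values thus rest on a spread between these libraries, borrowed in part from other loci, which may be technical.

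Summits were extended by 250 bp on each side and merged into loci, and scores were ranked within each library. Start sites are those of all transcripts of protein-coding genes in GENCODE release 44 mapped to GRCh37. The log2 of the best score, centred on the library median over shared loci, and the summit position were fitted with limma 3.58.1 (variance trend, two-sided) in R 4.3.3 over all 16314 shared loci, without a replicate block, with Benjamini-Hochberg adjustment over all of them and a threshold of 0.05. Fits were tested on simulated data. Sequence features came from 300 bp around the median summit. The promoters, the 20 gene lists, the motifs and the tests were chosen with earlier results of these data known. The counts of neighbouring starts and loci, GC classes, the window fixed by the start site and the arms were added after the values were seen. Named promoters are the 10 with the highest mean percentile, the called ones (up to 10 in each direction) or, where fewer than 5 were called, the 5 with the smallest p, the 5 on each side of the limit of 90, up to 3 per gene list by mean percentile, and all those of the SIN3 and MLL lists and the genes the study follows. Replicate numbers did not pair the libraries. A further gene list is not reported here, and 7 of the 13 sequence stretches read are printed.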

Additional observations from a re-analysis of the deposited data

How the results depend on the processing

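The number of promoters, 497 as reported, was 245 with a percentile of at least 95 in every library and 825 with one of at least 85, as a stricter or looser limit must give. It stayed between 385 and 488 with windows of 100 bp, start sites within 500 bp, gene record starts only, q values of 0.0001 or less, or equal list lengths. With the rule applied to 5 libraries it was 518 to 571. The 7 promoters called lower became 0 without the variance trend, 2 without scaling and 1 (FAR1) with libraries centred within each arm, and 2 to 5 with 1 library left out. Centring within arms removes arm-wide differences by construction, and leaving out a library leaves fewer samples. The cause of the other changes was not tested. The count was 7 with the other scalings, the sum of scores, windows of 100 bp and promoter loci only. Promoters called higher, 0 as reported, were 2 with quantile normalization and 0 in every other alternative run, each library left out included (0 to 0). The median difference of the promoters, -0.0621, was -0.0126 with quantile normalization, -0.0512 within arms and 0.0556, of opposite sign, without scaling, and -0.0711 to -0.0419 with 1 library left out. Without scaling the median of all shared loci moved by 0.11. Each of the 12 promoters given with a difference kept its direction in all 12 alternatives run on it. No promoter was called for a shift of summit position in any alternative (0 to 0 with 1 library left out).

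Replicate numbers are shared between the groups, but the deviations of same-numbered libraries from their group means correlated at -0.013, -0.002 and -0.003 across loci, so the numbers do not pair the samples. With the replicate number as a block, 7 promoters were called lower and 0 higher, the median difference was -0.06 and 0 were called for position.

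Depth is unknown, so a difference in depth between libraries is removed only as far as centring on the median removes it. With 3 libraries per group, differences of the size seen outside 11q lay mostly within the spread.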
